A study of Mus musculus with 6 samples.

Results

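The genes described here encode the cytokines, receptors and antagonists of the IL-1 family: Il1a, Il1b, Il18 and Il33 (ligands), Il1rn (antagonist), Il1r1, Il1rap, Il1rl1 and Il18rap (receptor chains) and Il1r2 (decoy receptor). They were taken by symbol from the deposited expression table, and all 10 listed genes were found among its 25572 genes. RNA sequencing had been done on hind limb skeletal muscle 3 days after surgery for hind limb ischaemia, an operation that reduces blood flow to the limb. One group was 3 Hdc-/- mice (HDCKO), which lack the enzyme histidine decarboxylase that makes histamine, and the other 3 WT mice, with a library from each animal. Both groups had the surgery, so each HDCKO level is set against injured WT muscle. The sources used here do not give the extent of the Hdc deletion, the strain, age and sex of the mice, or which muscle was taken.

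IL-1 alpha and IL-1 beta bind the type I receptor encoded by Il1r1, which signals once it has recruited the accessory chain encoded by Il1rap. The antagonist encoded by Il1rn occupies the same receptor without that recruitment, and the type II receptor encoded by Il1r2 binds the cytokines but lacks the signalling domain, so it acts as a decoy. IL-33 acts through Il1rl1 (ST2) with the same accessory chain, and IL-18 through Il18r1 with Il18rap. IL-1 beta and IL-18 are made as precursors that caspase-1 cleaves, whereas IL-33 is stored in nuclei and is released from damaged cells. In injured mouse muscle, IL-1 beta comes largely from infiltrating myeloid cells and IL-33 from stromal cells.

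Values are FPKM, fragments scaled to the length of the gene and the size of the library, which allow levels of different genes to be compared per length. The step between low values put the depth at 29497898 to 37636315 fragments per library. Log2 values of a library correlated at 0.887 to 0.963 with the others of its group in HDCKO, at 0.975 to 0.986 in WT and at 0.609 to 0.826 between the groups, across genes, which are not independent replicates. Hdc averaged 26.5% of its WT level in HDCKO muscle, so it was reduced rather than absent at the level of the whole gene. Transcripts of muscle fibres were higher in HDCKO: 12 marker genes summed to 46651 to 84504 FPKM, against 406 to 1556 FPKM in WT. Changes are differences of log2(FPKM + 0.5), HDCKO minus WT, which understate the change of a gene with values near 0, and were tested with limma. The median change over the 13288 genes tested was -0.50, so a typical gene stood below 0 on this scale. With median-of-ratios scaling the median was -0.04 and after quantile normalization -0.12.

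By position, 4 of the 6 receptor genes of a cluster on chromosome 1 are among the 10 described here. In GRCm39 the cluster runs from 40113239 to 40590865 on the plus strand, in the order Il1r2, Il1r1, Il1rl2, Il1rl1, Il18r1 and Il18rap. Il1a (129140291 to 129152098) and Il1b (129206490 to 129213059) are neighbours on the minus strand of chromosome 2. Il1rn lies on the plus strand of the same chromosome, about 105 Mb away (24226865 to 24241506). Il18 is on chromosome 9 (50466081 to 50493633), Il1rap on chromosome 16 (26400350 to 26548880) and Il33 on chromosome 19 (29902483 to 29938933), each on the plus strand. All 10 are annotated as protein coding.

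The 250 bases upstream of the annotated start are shown for 3 of the genes, taken from RefSeq on GRCm38.p6: Il1b, the ligand with the largest change, Il1r2, the receptor with the largest change, and Il18, the tested member with the smallest. Capitals mark matches, on either strand, to a kappaB-type motif (GGG, 5 bases of any kind, then CC), the AP-1 motif (TGANTCA), the E-box (CACGTG) and a STAT-type motif (TTCNNNGAA).
Il1b, chr2:129371140-129371389, minus strand: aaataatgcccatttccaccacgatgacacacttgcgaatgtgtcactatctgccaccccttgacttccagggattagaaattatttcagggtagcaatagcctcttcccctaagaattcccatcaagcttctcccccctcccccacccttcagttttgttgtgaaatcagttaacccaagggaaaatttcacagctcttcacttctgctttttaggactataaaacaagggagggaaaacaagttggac
Il1r2, chr1:40085843-40086092, plus strand: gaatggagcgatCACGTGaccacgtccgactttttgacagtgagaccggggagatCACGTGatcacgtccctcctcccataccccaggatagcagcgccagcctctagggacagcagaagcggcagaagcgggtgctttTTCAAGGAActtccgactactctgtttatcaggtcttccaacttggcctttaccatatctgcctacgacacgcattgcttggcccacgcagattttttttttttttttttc
Il18, chr9:50554450-50554699, plus strand: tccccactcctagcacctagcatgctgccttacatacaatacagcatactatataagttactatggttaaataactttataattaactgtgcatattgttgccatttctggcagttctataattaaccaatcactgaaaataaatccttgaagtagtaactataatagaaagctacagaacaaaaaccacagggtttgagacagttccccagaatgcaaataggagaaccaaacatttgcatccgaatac
The Il1r2 window held E-boxes beginning at bases -238 and -195 from the start and a STAT-type match at -111, none of which overlap. That start is the RefSeq start, not the start of the gene coordinates given above. By the shift of its neighbours Il1rl1 and Il18rap between the builds, the Il1r2 window lies inside those gene coordinates. The windows of Il1b and Il18 held none of these motifs. These 10 genes have 15 start sites in the table. Of these, 4 had a kappaB-type match, 2 an AP-1 match, 1 an E-box and 1 a STAT-type match. Over 32851 start sites of all genes in the same table the shares with a match were 45.8%, 6.7%, 6.0% and 7.0%, in that order. A match describes the letters of this window only.

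Of the 10 genes, 9 could be tested and these 9 were lower in HDCKO muscle (limma, adjusted p under 0.05), with changes from -6.35 for Il1b to -2.22 for Il18. Of all genes tested, 42.6% were called lower and 17.8% higher, or 5658 and 2362 genes. With median-of-ratios scaling 3496 were lower and 3492 higher. All 3 HDCKO values lay below all 3 WT values for the same 9 members, as they did for 51.4% of all genes tested. The median change of the 9 was -3.91, against -0.50 over all genes. Il1a, at a mean under 0.5 FPKM, was the member left out of the test. The limit applied to the mean of all 6 libraries, so a gene under it in HDCKO could be tested only through higher WT values. For such a gene the direction of the means was fixed by the limit. Il18rap passed that way, at means of 0.401 FPKM in HDCKO and 15.8 FPKM in WT. An exact two-sided permutation test of any single gene cannot go below p = 0.1 with 3 libraries against 3, the value each of the 9 reached. Because these are bulk samples, fewer cells of a type and less RNA per cell cannot be told apart.

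**Figure D1:**
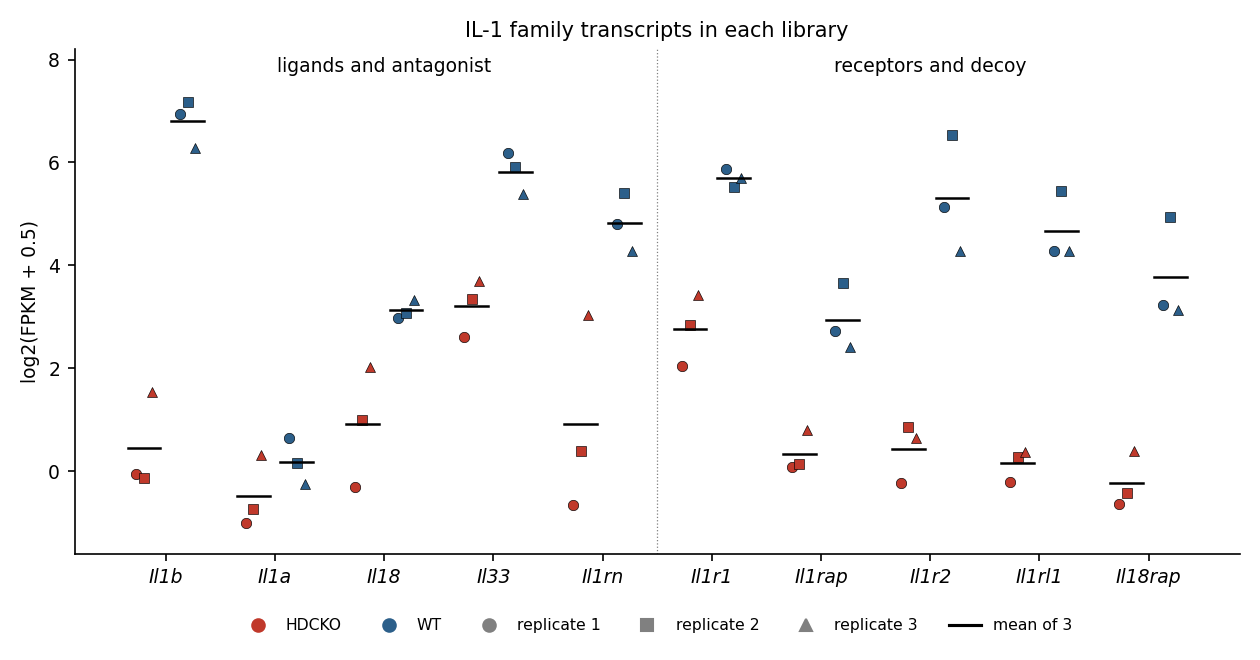
Level of each IL-1 family gene in each library as log2(FPKM + 0.5), with HDCKO in red, WT in blue, a symbol per replicate and a line at the mean of 3. Red and blue points are apart for every gene except Il1a, and Il1b shows the widest gap, with a change of -6.35.

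Among the ligands, Il1b had 0.462, 0.413 and 2.39 FPKM in HDCKO replicates 1, 2 and 3, against 123, 144 and 77.4 FPKM in WT replicates 1, 2 and 3. Its HDCKO mean was 0.950% of its WT mean, and the change was -6.35 (SE 0.50, limma adjusted p = 0.000469). Only 15 of the 13288 tested genes had a more negative change. HDCKO replicate 3 was the highest of its group and still far under every WT library. The values rested on 30, 23 and 170 fragments in the HDCKO libraries and on 5421 to 10073 in the WT libraries. The lncRNA Il1bos overlaps exons of Il1b on the other strand and was listed at 0 in the HDCKO libraries and at 0.097 to 0.444 FPKM in WT. The sources used here do not give whether reads were counted by strand, so reads of overlapping genes cannot be told apart. Il33 is likewise overlapped in exons on the other strand by the lncRNA Gm41832, at 0.114 FPKM or less in each library.

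Il33, the alarmin of stromal cells, had 5.60, 9.65 and 12.6 FPKM in HDCKO and 72.0, 59.3 and 41.2 FPKM in WT, in the order of replicates. Its HDCKO mean was 16.1% of its WT mean, with a change of -2.60 (SE 0.34, limma adjusted p = 0.00252). The groups did not overlap, and the spread within each was small next to the gap. Il18 had 0.314, 1.5 and 3.58 FPKM in HDCKO and 7.39, 7.94 and 9.61 FPKM in WT, a change of -2.22 (SE 0.56, limma adjusted p = 0.0177). The WT libraries were close together, while the HDCKO libraries differed by 11.4 times between the lowest and the highest. Leaving out HDCKO replicate 2 ended the Il18 call (limma adjusted p = 0.0565), as did leaving out WT replicate 1 (0.0503), 2 (0.0537) or 3 (0.0607), at changes of -2.30 to -2.12.

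Il1a, the ligand that can act as a precursor, was low in both groups. It was listed at 0, 0.103 and 0.740 FPKM in HDCKO and at 1.06, 0.614 and 0.341 FPKM in WT, on 0, 6 and 55 fragments and on 67, 45 and 25 fragments. The 0 of HDCKO replicate 1 allows a level of up to 0.0442 FPKM, the value of 3 fragments. HDCKO replicate 3 exceeded WT replicates 2 and 3, so the groups overlapped, and the exact two-sided permutation test gave p = 0.3 for a difference of -0.66 in mean log2 level. The lncRNA Gm14023 overlaps exons of Il1a on the other strand and went the other way, with 0.408, 0.343 and 0.418 FPKM in HDCKO, against 0.035, 0.091 and 0.045 FPKM in WT. It was looked up for that overlap and, at a mean under 0.5 FPKM, was not tested.

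The antagonist gene Il1rn varied widely within HDCKO. It had 0.135, 0.822 and 7.67 FPKM in HDCKO, a range of 57.0 times, and 27.4, 42.1 and 19.0 FPKM in WT. HDCKO replicate 3 reached 810 fragments, against 13 in HDCKO replicate 1, and all 3 remained below the WT libraries. The change was -3.91 (SE 0.92, limma adjusted p = 0.0147). Leaving out HDCKO replicate 2 gave a change of -3.65 that did not pass (limma adjusted p = 0.0564), and leaving out WT replicate 2 gave -3.62, which did not pass either (adjusted p = 0.0528).

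Of the receptors, the signalling chain Il1r1 had 3.61, 6.68 and 10.2 FPKM in HDCKO and 57.9, 45.5 and 51.6 FPKM in WT. Its change was -2.93 (SE 0.35, limma adjusted p = 0.00189), and its HDCKO mean was 13.2% of its WT mean. The WT libraries differed by only 1.27 times, the narrowest WT range of the 10 genes. Il1rap, the shared accessory chain, had 0.566, 0.600 and 1.24 FPKM in HDCKO and 6.11, 12.2 and 4.81 FPKM in WT, a change of -2.59 (SE 0.38, limma adjusted p = 0.00348). WT replicate 2 was the highest, and the HDCKO values lay well under all WT values. Exons of Il1rap are overlapped on the other strand by the lncRNA Gm20319, which stayed at or under 0.444 FPKM in every library.

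The decoy receptor gene Il1r2 had 0.358, 1.30 and 1.06 FPKM in HDCKO, against 34.6, 92.5 and 19.0 FPKM in WT. Its HDCKO mean was 1.86% of its WT mean, and the change was -4.89 (SE 0.60, limma adjusted p = 0.00204). WT replicate 2 held 4.87 times the level of WT replicate 3, the widest WT range of the 10 genes, and the groups remained apart. Il1rl1, the IL-33 receptor, had 0.370, 0.718 and 0.795 FPKM in HDCKO, against 19.0, 43.1 and 18.9 FPKM in WT. It fell by 4.52 on the log2 scale (SE 0.36, limma adjusted p = 0.000508), to 2.32% of its WT mean. The symbol covers both the membrane form and the soluble form of ST2, which a value per gene does not separate. Il18rap, the signalling chain of the IL-18 receptor, had 0.140, 0.251 and 0.813 FPKM in HDCKO, against 8.85, 30.2 and 8.30 FPKM in WT, a change of -3.99 (SE 0.55, limma adjusted p = 0.00294). As with Il1r2 and Il1rl1, WT replicate 2 stood above the other WT libraries.

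**Figure D2:**
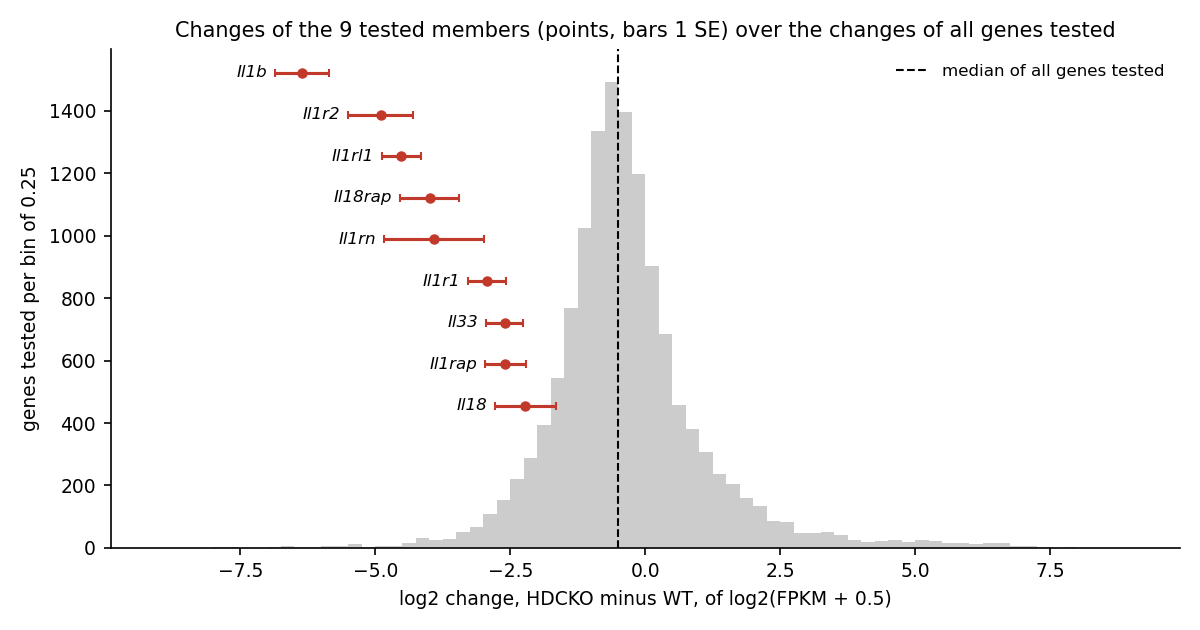
Log2 change, HDCKO minus WT, of the 9 tested members (red points with bars of 1 SE, height arbitrary) over a histogram of the changes of all 13288 genes tested, with a dashed line at their median of -0.50. The members run from -6.35 (Il1b) to -2.22 (Il18), all left of the median.

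The order of the genes by level differed between the groups. In WT, Il1b was first at 115 FPKM, and its lowest library was above the highest library of Il33, which came next at 57.5 FPKM. Il1r1 (51.7), Il1r2 (48.7), Il1rn (29.5), Il1rl1 (27.0), Il18rap (15.8), Il18 (8.31) and Il1rap (7.70 FPKM) followed, each with a range that overlapped that of the next. Il1a was last at 0.673 FPKM, clear of Il1rap. In HDCKO, Il33 was first at 9.27 FPKM and Il1r1 second at 6.84, ahead of Il1rn (2.88), Il18 (1.80) and Il1b (1.09 FPKM). The rest ran from 0.908 FPKM for Il1r2 to 0.281 FPKM for Il1a, and every gene in the HDCKO order overlapped its neighbour. As a share of the summed FPKM of the 10 genes, Il1b held 4.0%, 1.87% and 5.82% in HDCKO, against 34.3%, 30.1% and 31.0% in WT. Il33 held 48.5%, 43.8% and 30.6% in HDCKO, against 20.2%, 12.4% and 16.5% in WT.

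Ratios within a library were compared for 6 pairs of members. Plain FPKM ratios do not depend on how the library was scaled, whereas the log2 ratios that were tested do through the 0.5 FPKM added to each gene. Of the 6, 5 separated the groups on that log2 scale, each at an exact two-sided permutation p of 0.1, the smallest possible, and an adjusted p of 0.12 over the 6 pairs. The decoy Il1r2 over the signalling receptor Il1r1 was lower in HDCKO, with plain FPKM ratios of 0.0993, 0.195 and 0.104 in HDCKO and 0.598, 2.03 and 0.368 in WT. The difference of the log2 ratios was -1.97, and in WT replicate 2 the decoy exceeded the receptor. Without WT replicate 2 the difference was -1.27, and without any other single library it was -2.49 to -1.75. The receptor Il1rl1 over its ligand Il33 was lower too, at 0.0661, 0.0744 and 0.0633 in HDCKO and 0.264, 0.727 and 0.460 in WT, a difference of -1.92. Il18 over Il1b went the other way, at 0.680, 3.64 and 1.49 in HDCKO and 0.0603, 0.0552 and 0.124 in WT, a difference of 4.13.

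Il1rn over Il1b, the antagonist against the cytokine, was 0.292, 1.99 and 3.21 in HDCKO and 0.223, 0.293 and 0.245 in WT. On plain FPKM, HDCKO replicate 1 lay within the WT range, on 13 fragments of Il1rn and 30 of Il1b. The log2 ratios, which the added 0.5 FPKM moves at such low levels, were -0.60, 0.53 and 1.5 in HDCKO and -2.14, -1.76 and -2.0 in WT. Il1a over Il1b was 0, 0.25 and 0.309 in HDCKO, against 0.00867, 0.00427 and 0.00441 in WT, with a difference of 5.70 on the log2 scale that the same addition shapes. On plain FPKM, HDCKO replicates 2 and 3 were above the WT libraries, and HDCKO replicate 1, with Il1a listed at 0, cannot be placed. The accessory chain Il1rap over Il1r1 overlapped between the groups (log2 difference 0.34, exact two-sided permutation p = 0.6, adjusted p = 0.6).

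**Figure D3:**
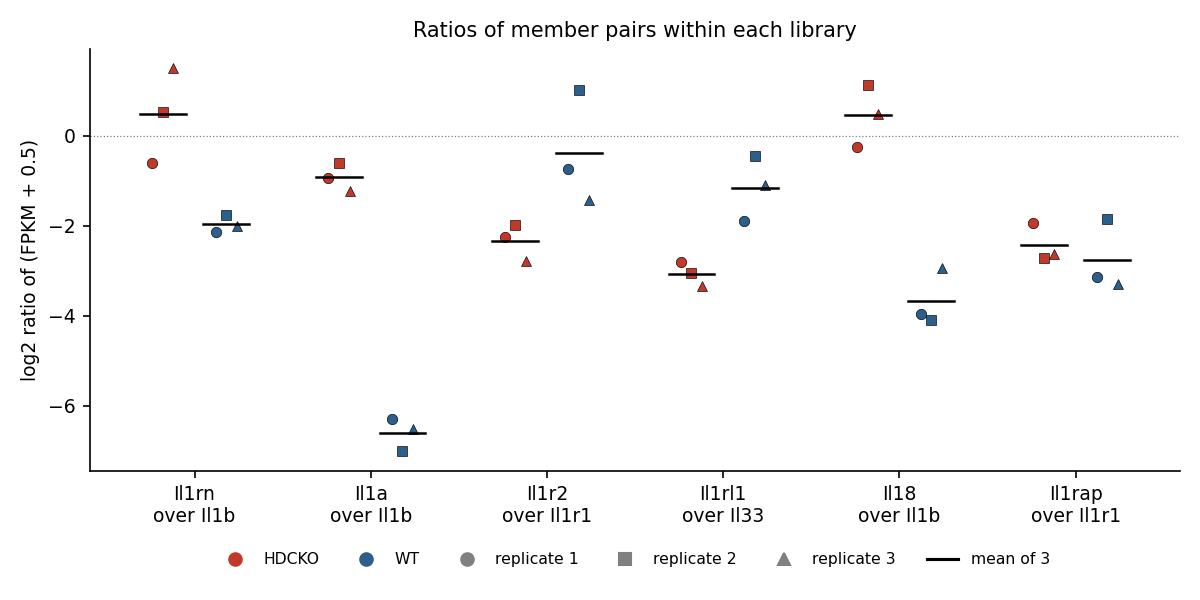
Log2 ratio of (FPKM + 0.5) of 6 member pairs in each library, with HDCKO in red left of WT in blue, a symbol per replicate and a line at the mean of 3. Antagonist, Il1a and Il18 stand higher against Il1b in HDCKO (differences of 2.44, 5.70 and 4.13). Decoy over receptor and Il1rl1 over Il33 stand lower, and Il1rap over Il1r1 overlaps. The added 0.5 FPKM shapes the Il1a difference and the antagonist ratio of HDCKO replicate 1. Decoy over receptor and Il1rl1 over Il33 also depend on it. Their differences are -2.43 and -2.5 with 0.1 FPKM added, and -1.61 and -1.47 with 1 FPKM added. The antagonist difference is 2.39 and 2.4 at these settings. In HDCKO replicate 1 Il1a is listed at 0, and the plain FPKM ratio of antagonist to Il1b (0.292) lies within the WT range.

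HDCKO replicate 3 was the highest HDCKO library for 9 of the 10 genes, and HDCKO replicate 1 the lowest for 9 of 10. Muscle fibre markers ran the other way, with sums of 84504, 72519 and 46651 FPKM in HDCKO replicates 1, 2 and 3. Over all genes tested, HDCKO replicate 3 correlated with the WT libraries at 0.783 to 0.826 and HDCKO replicate 1 at 0.609 to 0.657. In WT, replicate 2 was the highest for 6 genes (Il1b, Il1rn, Il1r2, Il1rap, Il1rl1 and Il18rap) and replicate 1 for 3 (Il1a, Il1r1 and Il33). Markers of cell types are given beside these values, and of all genes tested 42.6% were lower. Of 12 neutrophil markers 9 were tested and 9 were lower, with a median change of -5.56; their summed level was 32.5 to 71.0 FPKM in HDCKO and 2417 to 14355 FPKM in WT, highest in WT replicate 2. None of the 12 was at 0 in all HDCKO libraries. Camp, Ngp and Ly6g averaged 0.104, 0.287 and 0.115 FPKM in HDCKO, so they were tested through WT alone, which fixed their direction. Of 12 monocyte and macrophage markers 8 were lower, with a median change of -2.37, and their sum was 123, 378 and 671 FPKM in HDCKO replicates 1, 2 and 3, against 1093 to 1464 FPKM in WT. Fibroblast markers (4 of 10 lower and 1 higher, median -0.85) summed to 1995 to 3014 FPKM in HDCKO and 3396 to 6073 FPKM in WT, and endothelial markers (5 of 10 lower, median -0.57) to 213 to 309 FPKM in HDCKO and 411 to 611 FPKM in WT. The fibroblast and endothelial shares called lower are near that of all genes. Of 7 mast cell markers tested 3, Hdc itself among them, were lower (median -0.14), with sums of 34.2 to 63.5 FPKM in HDCKO and 43.3 to 78.1 FPKM in WT. Of these, Fcer1a averaged 0.354 FPKM in HDCKO and was tested through WT alone, which fixed its direction. Of 4 regulatory T cell and ILC2 markers tested 1 was lower and 2 were higher (median -0.22). Each of these called genes was tested through a single group, which fixed its direction. Areg averaged 0.0875 FPKM in HDCKO, and Il2ra and Ikzf2 averaged 0.129 and 0.116 FPKM in WT. The regulatory T cell and ILC2 list summed to 1.82 to 18.7 FPKM in HDCKO and 10.6 to 24.9 FPKM in WT. Il13 was at 0 in all HDCKO libraries and at 0.0260, 0 and 0 FPKM in WT. Of 8 T and NK cell markers tested 0 were called by limma, and 0 had an unadjusted p under 0.05, at a median change of 1.81. Cd8a, Cd3e, Cd4, Cd3g, Cd3d and Nkg7 averaged 0.0325, 0.115, 0.128, 0.202, 0.424 and 0.480 FPKM in WT. They were tested through HDCKO alone, which fixed their direction, so this median does not show a rise. Keratinocyte markers, of skin, summed to at most 3.02 FPKM in HDCKO and 0.697 FPKM in WT. The part of these cell types in the changes of the IL-1 family was not tested.

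Genes whose profile over the 6 libraries was nearest to that of a member were found by the distance between centred log2 values among 12706 protein-coding genes tested. Nearest to Il1b were Clec4e (distance 0.64), Fpr1 (0.82) and Ccl3 (0.93). Il1r2 was closest to Lcn2 (0.73), Cxcr2 (0.92) and Csta3 (0.99), the last a stefin family gene whose near-identical copies make its value uncertain. For Il33 they were Cyp7b1 (0.30), Cyp26b1 (0.34) and Hdhd3 (0.40), and for Il1r1 they were Pfkl (0.32), Nsg1 (0.39) and Igf2bp2 (0.42). These distances describe 6 libraries that fall into separate groups.

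The other genes of the family add to the receptor cluster and to the IL-36 branch. Of 11 further ligands and receptors only 4 were expressed enough to be tested, and 3 of them were lower in HDCKO, against 42.6% of all genes. Il36g, a ligand made by epithelial and myeloid cells, had 0.0353, 0.226 and 0.307 FPKM in HDCKO, against 26.0, 135 and 21.2 FPKM in WT. Its change of -5.97 (SE 0.70, limma adjusted p = 0.0017) was close in size to that of Il1b, and WT replicate 2 was again the highest. With an HDCKO mean of 0.189 FPKM, Il36g reached the limit for testing through WT alone, which fixed its direction. Il1rl2, the IL-36 receptor, had 1.23, 3.37 and 3.25 FPKM in HDCKO and 11.6, 10.3 and 14.2 FPKM in WT (change -2.08, limma adjusted p = 0.00523). Il18bp, the soluble inhibitor of IL-18, changed by -1.05 (limma adjusted p = 0.0451). That call was lost in 9 of 15 other settings, which left 2 genes called: a pseudocount of 0.1, no filter, median-of-ratios scaling, the replicate block (adjusted p = 0.0634), and leaving out HDCKO replicate 1 or 2 or any one WT library. Over the 15 settings its adjusted p ran from 3.73e-05 to 0.121. Sigirr, a receptor that dampens IL-1 signalling, did not pass (-0.26, limma adjusted p = 0.495), and its value was 0.17 with median-of-ratios scaling.

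Of the 6 receptor genes along the cluster 5 were tested, 4 of them members already counted above. Each of the 5 was lower, against 42.6% of all genes, with changes from -4.89 for Il1r2 to -2.08 for Il1rl2. The exception was Il18r1, the ligand-binding chain for IL-18, with 0.0342, 0.526 and 0.866 FPKM in HDCKO and 0.154, 0.645 and 0.243 FPKM in WT. Its groups overlapped and its mean lay under the limit for testing, although it sits between Il1rl1 and Il18rap. In WT, Il18rap at 15.8 FPKM was therefore far above its partner chain Il18r1 at 0.347 FPKM, while in HDCKO the means were 0.401 and 0.475 FPKM. T and NK cell markers, cells known to carry both chains, summed to 0.232, 43.0 and 77.4 FPKM in HDCKO replicates 1, 2 and 3, against 3.95 to 6.68 FPKM in WT. Their part in the Il18r1 values was not tested.

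**Figure D4:**
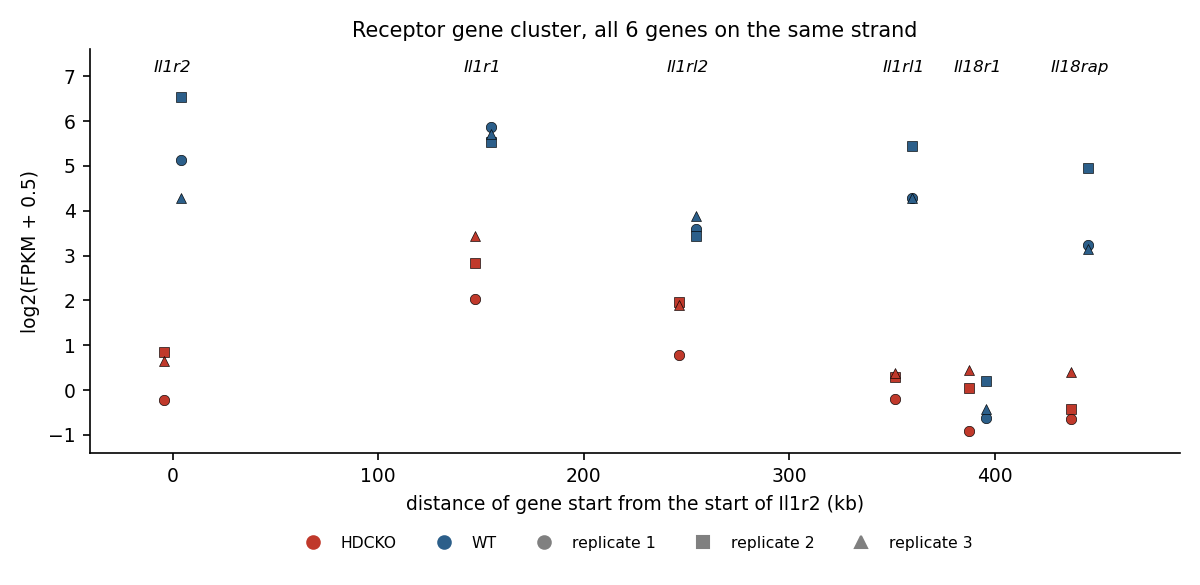
Level of the 6 receptor genes of the cluster as log2(FPKM + 0.5), placed by the distance of each gene start from that of Il1r2 in kb, with HDCKO in red and WT in blue and a symbol per replicate. The groups are apart at 5 genes and overlap at Il18r1, which starts 391.5 kb from Il1r2. Of all genes tested, 51.4% had all HDCKO values below all WT values.

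Genes that process and release IL-1 were mostly lower. The list, chosen with earlier results of these data known, as were the lists that follow, had 19 tested genes, of which 14 were lower and 1 higher (median change -1.59), against 42.6% lower and 17.8% higher of all genes. The inflammasome sensor Nlrp3 had 0.0356, 0.125 and 0.821 FPKM in HDCKO and 10.6, 15.2 and 9.64 FPKM in WT (change -3.99, limma adjusted p = 0.000847). Mefv, which encodes the sensor pyrin, changed by -3.83 and the neutrophil protease gene Prtn3 by -2.20. The membrane rupture gene Ninj1 changed by -2.22 and the sensor Nlrp1b by -1.15. Nlrp3, Mefv and Nlrp1b averaged 0.327, 0.422 and 0.143 FPKM in HDCKO, so they were tested through WT alone, which fixed their direction. The same held for Gsdme (0.107 FPKM), named for that reason and also among the 14 lower genes. Casp1, the protease that matures IL-1 beta and IL-18, and the pore gene Gsdmd, named after their values were seen, changed by -2.08 and -1.92. Both calls were lost without HDCKO replicate 2 and without any one WT library (limma adjusted p of 0.0553 to 0.0874). The Casp1 call was also lost with no filter (limma adjusted p = 0.0606). The gene that rose was Txnip (1.29, limma adjusted p = 0.0113), and Nek7, Panx1, Nlrc4 and Capn1 did not pass; these 5 also fall outside the naming rule. Leaving out HDCKO replicate 2 reduced the 14 lower genes to 7 and ended the call on Txnip. Leaving out WT replicate 1 or 2 left 9 lower genes, and leaving out WT replicate 3 left 8.

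Genes of the signalling path below the receptor changed less. Of 32 tested, 15 were lower and 17 did not pass, a share near the 42.6% of all genes, and their median change was -0.69. Those with the smallest p were Nfkbiz (-3.18), a transcriptional regulator induced by IL-1, the inhibitory kinase Irak3 (-1.97), the NF-kappaB inhibitor Nfkbia (-1.22), the adaptor Myd88 (-2.62) and the kinase Chuk (-1.05). Myd88 had 5.30, 10.9 and 23.1 FPKM in HDCKO, against 60.8, 86.6 and 67.2 FPKM in WT. With median-of-ratios scaling 8 genes were lower and 4 higher, and after quantile normalization 10 were lower and 3 higher. Leaving out HDCKO replicate 3 raised the 15 lower genes to 25. Leaving out HDCKO replicate 2 or WT replicate 2 or 3 left 8, and leaving out WT replicate 1 left 9.

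Genes that IL-1 is known to induce in fibroblasts and myeloid cells were low in HDCKO. Of 23 tested, 20 were lower (median change -3.38), against 42.6% of all genes. Without single libraries the count was 19 to 21, while that of all genes was 2502 to 7266. The chemokines Cxcl3 (-8.54), Cxcl2 (-7.96) and Cxcl1 (-6.87), the cytokine Il6 (-6.92) and the cyclooxygenase gene Ptgs2 (-5.30) had the smallest p. Of these, Cxcl3, Cxcl2, Il6 and Ptgs2 averaged 0.360, 0.291, 0.114 and 0.229 FPKM in HDCKO. They were tested through WT alone, which fixed their direction. The same held for Lif, Csf3 and Sele (0.0910, 0.0250 and 0.126 FPKM), named for that reason and also counted as lower. Cxcl1 had 1.25, 0.674 and 1.06 FPKM in HDCKO, against 163, 148 and 207 FPKM in WT, with the HDCKO libraries close together. For the chemokine Ccl2, picked out by its values, HDCKO replicate 3 was far above the other HDCKO libraries, with 2.60, 7.23 and 66.1 FPKM in HDCKO and 578, 725 and 965 FPKM in WT. Icam1 (-1.13), Vcam1 (-0.67) and Sod2 (0.49) did not pass and were picked out by their values. Other stimuli also induce these genes, and their levels do not show which one acted.

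Of 13 genes linked to IL-18 and IL-33 signalling only 4 could be tested. Of these 1 was lower and 1 higher, against 42.6% lower and 17.8% higher of all genes. Each was tested through a single group, which fixed its direction: Areg averaged 0.0875 FPKM in HDCKO and Il2ra 0.129 FPKM in WT. Ccl24 (-1.16, limma adjusted p = 0.0521) and Gzmb (-1.0, adjusted p = 0.208) did not pass. Areg, a growth factor made by regulatory T cells and other cells, had 0, 0 and 0.262 FPKM in HDCKO and 1.06, 1.22 and 2.64 FPKM in WT (change -1.82, limma adjusted p = 0.0069). Il2ra, a receptor chain of activated and regulatory T cells, had 0.499, 1.25 and 1.72 FPKM in HDCKO and 0.191, 0.116 and 0.0792 FPKM in WT (change 1.33, limma adjusted p = 0.0145). Leaving out HDCKO replicate 2 or WT replicate 3 ended the call on Il2ra. Foxp3, which marks regulatory T cells that carry the IL-33 receptor in injured mouse muscle, was at 0.0222, 0.492 and 0.744 FPKM in HDCKO and at 0.0159, 0.0137 and 0.0206 FPKM in WT. Foxp3 was under the limit for testing and is named after its values were seen. Ccl17 and Il9r, also untested, had every HDCKO value above WT, as Foxp3 had, but at very low levels. Their lowest HDCKO values were 0.0594 FPKM for Ccl17, 0.0116 FPKM for Il9r and 0.0222 FPKM for Foxp3. The highest WT values were 0.0213, 0.00359 and 0.0206 FPKM, in that order. The share of all genes with every HDCKO value above WT is not given here. The groups overlapped for the remaining untested genes of this list. Il1rl1 was lower in all 3 HDCKO libraries. The cytokine gene Il13 was listed at 0 in all 3 HDCKO libraries and in 2 of the WT libraries.

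**Figure D5:**
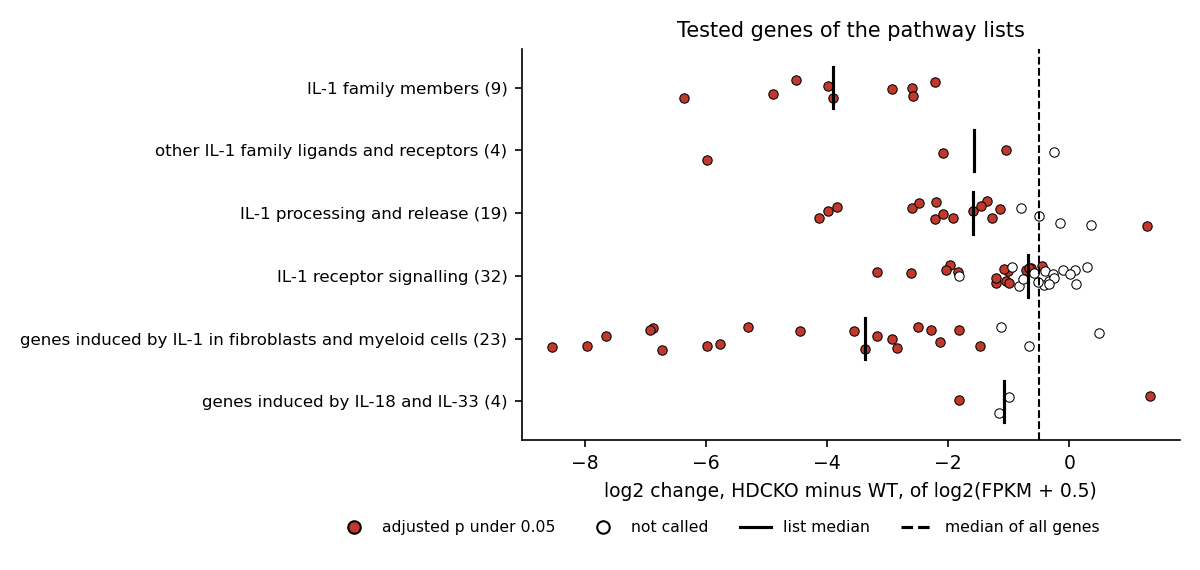
Log2 change, HDCKO minus WT, of each tested gene of the IL-1 family and of 5 pathway lists (number of genes tested in brackets), red where adjusted p was under 0.05, with a bar at each list median and a dashed line at the median of all genes (-0.50). Family members and genes induced by IL-1 lie furthest left, with medians of -3.91 and -3.38, and signalling genes lie around the dashed line.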

How the data were processed

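RNA from hind limb muscle of 3 HDCKO and 3 WT mice was sequenced from total RNA after library construction with a VAHTS kit, per the protocols in the labels. The submitters' processing notes name FastQC 0.11.9, HISAT2 2.1.0, HTSeq 0.11.2, STAR 2.7.11b and the build GRCm39. The deposited values are FPKM that the authors made from a count matrix, per the series' design text. The sources used here do not give which aligner led to the table, the strand setting or the treatment of shared reads.

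The test was limma-trend (limma 3.58.1, R 4.3.3) on log2(FPKM + 0.5) over the 13288 genes whose mean reached 0.5 FPKM, with no covariate and Benjamini-Hochberg adjustment at 0.05. Exact permutation tests were two-sided. The limma p-values set the difference between the groups against the spread between these mice, which limma moderates across the genes tested. Whole fragments were recovered from the steps of the FPKM values, within 0.002 fragments, for 99.9% of genes tested. They give the smallest counts that fit all 6 values, entered no main test, and their limits cover counting error only. Coordinates came from GENCODE M39 by symbol (22464 of 25572 matched).

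The 10 genes, the pathway and marker lists and the ratio pairs were chosen with earlier results of these data known. The naming rule took the 10 members, Hdc, up to 5 called genes with the smallest p of each pathway list and the 3 nearest profiles of Il1b, Il1r2, Il33 and Il1r1. Pseudocounts, filters, scalings, sample weights, a replicate block, leaving out each library and, added after the data were seen, limma-voom on recovered fragments were tried.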

Additional observations from a re-analysis of the deposited data

How the results depend on the processing

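The 9 tested members kept their direction in all 135 values computed over 15 other settings, and 129 of these kept the call; the 6 lost calls, of Il1rn and Il18 with single libraries left out, are given with those genes. With median-of-ratios scaling, quantile normalization, sample weights, the other pseudocounts and filters, and limma-voom on recovered fragments, 9 members were called lower. The 9 ran from 7 to 9 with each library left out in turn. Without single libraries the change of Il1rn ran from -4.96 to -3.12 and that of Il18 from -2.78 to -1.62. For Il1a the difference was -1.48 with a pseudocount of 0.1, and with no filter its adjusted p was 0.269 (limma). The log2 ratio of Il1rap over Il1r1 turned to -0.06 with a pseudocount of 0.1; the cause was not tested.

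Among all genes tested, 5658 were lower, 3496 with median-of-ratios scaling and 2502 to 7266 without single libraries. That scaling centres a typical gene near 0 by construction. In the release list, 14 genes were lower and 7 to 15 without single libraries; the 1 higher was 2 with median-of-ratios scaling, 2 after quantile normalization, 2 with sample weights and 0 to 1 without single libraries. In the signalling list, 15 were lower, 8 with median-of-ratios scaling, 25 with sample weights and 8 to 25 without single libraries; 4, 3 and 1 were higher with median-of-ratios scaling, quantile normalization and sample weights. In the list of genes induced by IL-1, 1 was higher with sample weights. In the IL-18 and IL-33 list, the 1 lower was 0 with a mean of at least 1 FPKM, 3 with sample weights, 2 with the replicate block and 1 to 3 without single libraries; the 1 higher was 0 with a mean of at least 1 FPKM and 0 to 1 without single libraries. The estimate of the sample weights did not converge fully. The cause of these shifts was not tested.

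The sample labels do not say whether the mouse numbers pair the samples. Deviations of same-numbered HDCKO and WT libraries correlated at 0.12, 0.07 and 0.14. Those of differently numbered libraries correlated at -0.18 to 0.11, the highest for HDCKO replicate 2 with WT replicate 1. Correlations this small, with 3 libraries per group, cannot decide whether there is a pairing. With the replicate block 9 members were still called lower, and 5089 genes in all. Levels under about 0.05 FPKM rest on a few fragments, which limits Il1a, Il18r1 and Il36g in HDCKO. The same limit holds for Foxp3 and Il9r in both groups and for Ccl17 in WT.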
